A study of Rattus norvegicus with 15 samples.

Results

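Small leucine-rich proteoglycans (SLRPs) are secreted matrix proteins built from leucine-rich repeats, and most of them carry glycosaminoglycan chains. Their transcripts were followed here in rat multifidus muscle. The 9 genes were chosen by symbol as SLRPs of muscle matrix: Bgn, Dcn, Lum, Fmod, Ogn, Aspn, Prelp, Omd and Kera. They match 10 of the 37991 genes in the deposited table, because Ogn is listed there under 2 identifiers. All 9 passed the filter on low counts. SLRPs bind collagen and help to set the width and spacing of its fibrils. Several also bind growth factors of the TGF-β family or receptors on cells. In skeletal muscle they lie in the connective tissue around the fibres, where fibroblasts are a main source of them.

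The animals were wild type male Sprague Dawley rats, 12 weeks old and weighing 340 to 370 g, and multifidus RNA was sequenced in paired-end mode in 15 libraries. Control rats were uninjured (2 libraries), and surgery rats had a hemilaminectomy with ligation of the left L5 spinal nerve and no later treatment (2 libraries). The pMT group (4 libraries) also received pMT, mitochondria isolated from human plasma, at 25 μg in 100 μL per site and 50 μg per rat on day 14, with tissue taken on day 28. Control and surgery tissue was taken on day 28 as well. After the same surgery, the VitD group (3 libraries) received cholecalciferol at 150 μg per site and 300 μg per rat. The pMT/VitD group (4 libraries) also had this surgery and received both agents at these doses. For the VitD and pMT/VitD groups, neither the days of treatment nor the day of tissue collection is stated. Time after surgery may therefore differ in comparisons with them. VitD was also given by injection at each site, but no group is described as injected with the buffer of pMT alone, so the effect of pMT cannot be told apart from that of its buffer. The labels do not say that the libraries come from separate animals, so p-values here measure the spread between these samples, which may be technical. Library totals ranged from 52300000 to 73600000 counts.

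Skeletal muscle markers had the highest summed level of the 9 marker lists in every library. Acta1, the actin of skeletal muscle fibres, had a mean of 51660 TPM (transcript abundance scaled for length and library size), and the 8 muscle markers summed to between 83170 TPM in VitD replicate 1 and 124100 TPM in pMT/VitD replicate 4. Some libraries stood apart from their groups. The SD of the log2 difference over genes was 0.403 to 0.597 between pMT replicate 4 and the other pMT libraries, but 0.237 between it and pMT/VitD replicate 1. For pMT/VitD replicate 4 it was 0.448 to 0.540 within its own group and 0.262 against control replicate 1. VitD replicate 1 differed from VitD replicates 2 and 3 by 0.412 and 0.530. The surgery pair was the closest within a group, at 0.142.

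Levels can be compared between genes only per length, in TPM. Dcn (gene 29139), decorin, was the most abundant of the 9, with a mean of 540 TPM over the 15 libraries, or 73.4% of the summed SLRP level. Lum followed at 72.5 TPM, Bgn at 63.0 TPM, Ogn at 21.5 TPM and Prelp at 20.5 TPM. Fmod had 8.11 TPM, Aspn 6.13 TPM, Omd 2.16 TPM and Kera 1.46 TPM. By group, Aspn had a higher mean than Fmod in the surgery group (8.93 ± 1.08 against 8.34 ± 0.144 TPM, SD, n = 2). Aspn was also above Fmod in the VitD group (12.5 ± 7.54 against 9.01 ± 0.18 TPM, SD, n = 3). Kera had a higher mean than Omd in the pMT/VitD group (1.97 ± 1.17 against 1.55 ± 0.123 TPM, SD, n = 4). These differences lay within the spread. The order of Lum and Bgn was not the same in all groups. Lum was above Bgn in the control group (54.9 ± 5.10 against 25.7 ± 2.10 TPM, SD, n = 2) and below it in the surgery group (99.4 ± 3.12 against 110 ± 2.15 TPM, SD, n = 2). Lum and Bgn did not differ beyond their spread in the VitD group (122 ± 40.9 and 138 ± 84.0 TPM, SD, n = 3). Ogn was above Prelp in the control group (17.2 ± 1.36 against 13.7 ± 0.122 TPM, SD, n = 2) and below it in the surgery group (25.8 ± 1.64 against 31.8 ± 0.440 TPM, SD, n = 2). In the VitD group the pair was within its spread (31.5 ± 4.84 and 32.3 ± 3.68 TPM, SD, n = 3).

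The balance of decorin to biglycan, the closest relatives in the family, differed widely between libraries. The ratio of Dcn to Bgn TPM was 20.2 in each control library and 5.21 and 5.34 in the surgery libraries. It was 20.7, 19.96, 18.4 and 8.51 in pMT replicates 1 to 4 and 8.75, 11.4, 14.7 and 27.1 in pMT/VitD replicates 1 to 4. In the VitD libraries it was 3.02, 5.44 and 9.49. Thus pMT replicate 4 lay apart from its group, and VitD replicate 3 overlapped the pMT and pMT/VitD groups.

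**Figure D1:**
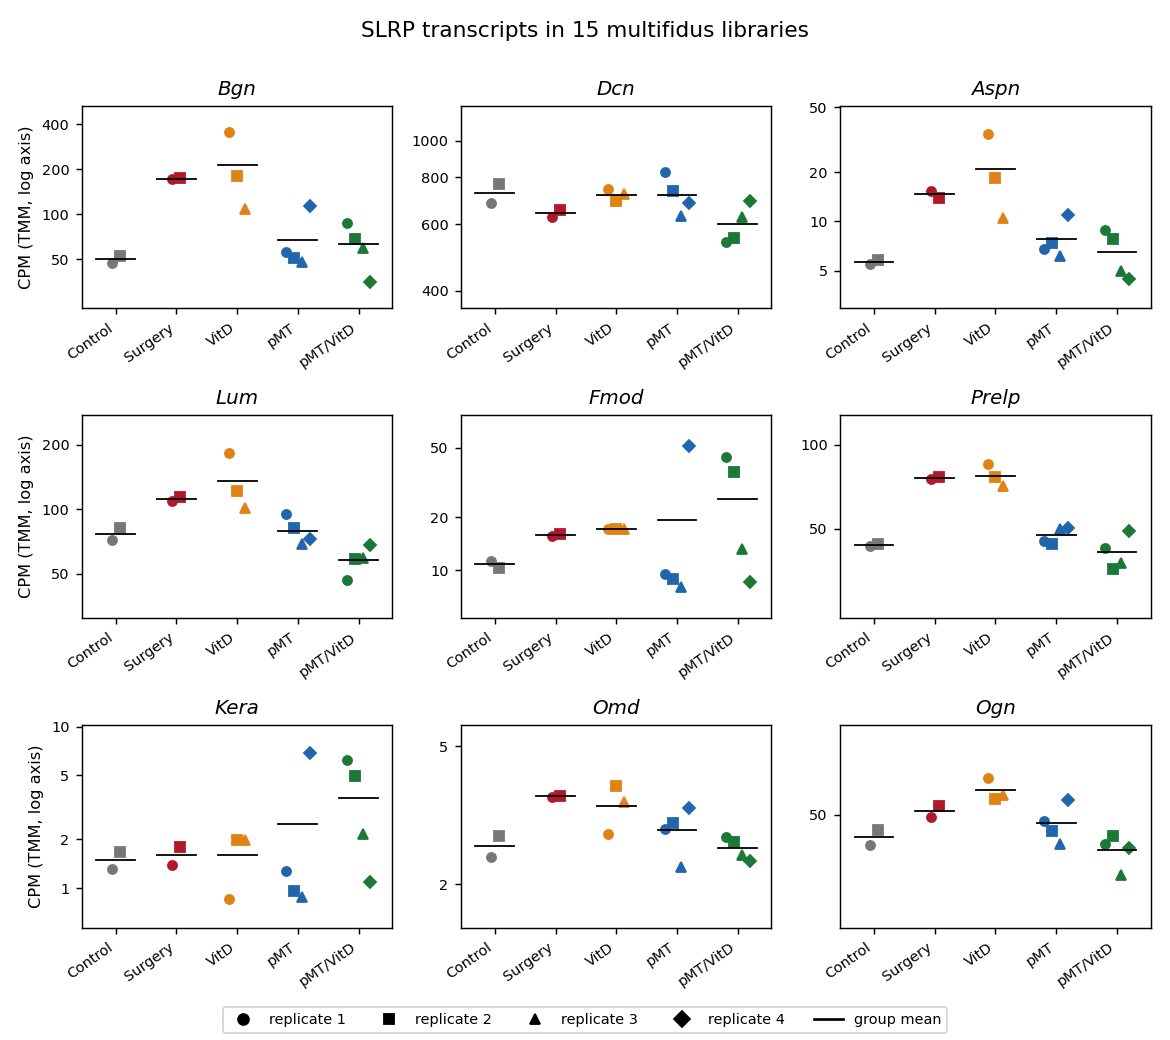
Level of each SLRP transcript in CPM (counts scaled for library size with TMM factors, log axis) in the 15 libraries, with a bar at the group mean and a symbol for each replicate. Dcn, the highest, lies between 539 and 827 CPM, and Kera between 0.854 and 6.82 CPM.

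The class I members come first. Bgn (gene 25181) encodes biglycan, which binds collagen and can signal through Toll-like receptors when released. Its level was 47.3 and 53.0 CPM (counts scaled for library size) in the control libraries, 171 and 176 CPM in the surgery libraries and 355, 181 and 108 CPM in the VitD libraries. It was 56.0, 51.4, 48.3 and 113 CPM in the pMT libraries and 87.6, 68.7, 60.0 and 35.4 CPM in the pMT/VitD libraries. Every surgery library was above every control, pMT and pMT/VitD library, and of the VitD libraries only replicate 3 fell below a pMT library, replicate 4. In the 8 libraries with pMT against the 5 operated libraries without it, Bgn was lower, with a log2 fold change of -1.57 (SE 0.284, adjusted p = 0.00167). This contrast averages pMT with pMT/VitD and surgery with VitD, and every adjusted p here comes from edgeR's quasi-likelihood test over all genes tested unless another test is named. In these bulk samples, fewer cells of a type and less RNA per cell cannot be told apart.

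Dcn encodes decorin, which regulates collagen fibril growth and binds TGF-β. Its level was 683 and 768 CPM in the control libraries, 627 and 657 CPM in the surgery libraries and 744, 691 and 722 CPM in the VitD libraries. It was 827, 736, 632 and 682 CPM in the pMT libraries and 539, 552, 627 and 692 CPM in the pMT/VitD libraries. The groups overlapped, apart from the surgery libraries, which lay below both control libraries and all 3 VitD libraries in CPM. In TPM the surgery (567 and 598 TPM) and VitD libraries (620 to 697 TPM) lay above both controls (488 and 550.0 TPM) and all 4 pMT/VitD libraries (324 to 551 TPM), so the order of the groups depends on the scale. Dcn passed the quasi-likelihood test of all libraries in none of the comparisons, and its log2 fold change in the contrast of 8 against 5 libraries was -0.05, with a 95% interval of -0.25 to 0.16. For pMT/VitD against VitD, where it was -0.25 (adjusted p = 0.165), Dcn was called with library sizes alone (-0.59, adjusted p = 0.00932, with 5758 genes called in all) and without both pMT replicate 4 and pMT/VitD replicate 4 (-0.34, adjusted p = 0.0418, with 5497 genes). Limma voom with quality weights called Dcn there (-0.30), for pMT against surgery (0.19), for pMT/VitD against pMT (-0.38) and control (-0.36), for the difference of the pMT effect with and without VitD (-0.50) and over the 5 groups, comparisons in which it called 10.6% to 66.6% of all genes.

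Aspn (gene 306805) encodes asporin, a relative of decorin that binds collagen. Its level was 5.51 and 5.82 CPM in the control libraries, 15.2 and 13.99 CPM in the surgery libraries and 34.0, 18.3 and 10.4 CPM in the VitD libraries. It was 6.82, 7.33, 6.12 and 10.9 CPM in the pMT libraries and 8.88, 7.75, 4.97 and 4.42 CPM in the pMT/VitD libraries. The surgery libraries lay above all control, pMT and pMT/VitD libraries, and VitD replicate 3 lay just below pMT replicate 4. In the contrast of 8 against 5 libraries the log2 fold change was -1.30 (SE 0.244, adjusted p = 0.00206). Aspn is one of 3 members for which a near-identical entry was found in the table by its symbol or description. Aspnl1 held 94.4% to 98.6% of the Aspn counts, LOC103690116 held 97.9% to 101% of the Omd counts and the second Ogn entry held 98.1% to 99.3% of the Ogn counts. How shared reads were assigned is not stated, so the levels of Aspn, Omd and Ogn are uncertain.

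The class II members follow. Lum (gene 81682) encodes lumican, a keratan sulfate proteoglycan that limits the width of collagen fibrils. Its level was 71.4 and 81.2 CPM in the control libraries, 109 and 114 CPM in the surgery libraries and 183, 122 and 101 CPM in the VitD libraries. It was 94.8, 81.7, 68.4 and 72.6 CPM in the pMT libraries and 46.5, 58.6, 59.1 and 68.2 CPM in the pMT/VitD libraries. All 5 operated libraries without pMT lay above all 8 with it, and the pMT/VitD libraries lay below both controls. Between these 8 and 5 libraries the log2 fold change was -0.85 (SE 0.136, adjusted p = 0.000688).

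Prelp (gene 84400) encodes a basic SLRP that binds heparan sulfate as well as collagen. Its level was 43.2 and 43.9 CPM in the control libraries, 75.4 and 76.7 CPM in the surgery libraries and 84.9, 76.2 and 71.0 CPM in the VitD libraries. It was 45.3, 44.2, 49.8 and 50.4 CPM in the pMT libraries and 42.7, 35.9, 37.6 and 48.8 CPM in the pMT/VitD libraries. The 5 operated libraries without pMT did not overlap with any other library. The lowest of them stood at 71.0 CPM, against 50.4 CPM for the highest of the rest. How many of all genes separate the libraries as Prelp or Lum do was not counted. In the quasi-likelihood contrast of 8 against 5 libraries, 36.6% of all genes had an unadjusted p under 0.05. For Prelp, the same contrast of 8 against 5 libraries gave a log2 fold change of -0.79 (SE 0.0813, adjusted p = 3.07e-05).

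Fmod (gene 64507) encodes fibromodulin, a collagen-binding SLRP that is abundant in tendon. Its level was 11.3 and 10.4 CPM in the control libraries, 15.7 and 16.1 CPM in the surgery libraries and 17.2, 17.1 and 17.2 CPM in the VitD libraries. It was 9.49, 8.96, 8.04 and 50.8 CPM in the pMT libraries and 43.9, 36.4, 13.3 and 8.58 CPM in the pMT/VitD libraries. High levels were thus found in pMT replicate 4 and pMT/VitD replicates 1 and 2, while the other 5 libraries with pMT lay below every operated library without it. The log2 fold change in the contrast of 8 against 5 libraries was 0.43 (95% interval -0.62 to 1.48, adjusted p = 0.565), and without pMT replicate 4 it was -0.14 (adjusted p = 0.794).

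Kera (gene 314771) encodes keratocan, best known from the cornea and also made in tendon. Its level was 1.31 and 1.67 CPM in the control libraries, 1.38 and 1.80 CPM in the surgery libraries and 0.854, 1.99 and 1.98 CPM in the VitD libraries. It was 1.28, 0.960, 0.882 and 6.82 CPM in the pMT libraries and 6.18, 4.93, 2.17 and 1.09 CPM in the pMT/VitD libraries. The same 3 libraries were high as for Fmod, and the other 12 libraries lay between 0.854 and 2.17 CPM. Its log2 fold change in the contrast of 8 against 5 libraries was 0.89 (95% interval -0.29 to 2.08, adjusted p = 0.260). Leaving out both pMT replicate 4 and pMT/VitD replicate 4 removes the pMT library with the highest Fmod and Kera levels and the pMT/VitD library with the lowest, so the calls of Fmod and Kera that it gives follow from which libraries were left out. Over the 15 libraries, the log2 CPM of Fmod and Kera had a Pearson r of 0.907 and a Spearman rho of 0.739. This description includes those 3 high libraries, and no value without them is given.

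Omd (gene 83717), osteomodulin, is a keratan sulfate SLRP of mineralised tissue. It ranged from 2.25 CPM in pMT replicate 3 to 3.84 CPM in VitD replicate 2. The surgery libraries (3.57 and 3.60 CPM) lay above all libraries other than VitD replicate 2. The log2 fold change in the contrast of 8 against 5 libraries was -0.37 (SE 0.116, adjusted p = 0.0342). This call was lost without 7 of the 13 libraries: surgery replicate 1 (adjusted p = 0.107) or 2 (0.115), pMT replicate 1 (0.0530) or 2 (0.0501), pMT/VitD replicate 3 (0.0520), and VitD replicate 2 (0.0895) or 3 (0.0545). It was also lost with the replicate number as a block (adjusted p = 0.0832).

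Ogn (gene 291015), osteoglycin or mimecan, is the class III member. Its level ranged from 31.7 CPM in pMT/VitD replicate 3 to 66.4 CPM in VitD replicate 1. The 3 VitD libraries, at 56.6 to 66.4 CPM, lay above all others, and the next was pMT replicate 4 at 56.1 CPM. The log2 fold change in the contrast of 8 against 5 libraries was -0.39 (SE 0.0943, adjusted p = 0.00885). Without surgery replicate 2 the adjusted p was 0.0571.

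The overlaps just described are in CPM, and some differ in TPM. There, VitD replicate 3 lay above pMT replicate 4 for Bgn (67.96 against 47.4 TPM) and Aspn (6.05 against 4.63 TPM). For Lum, pMT/VitD replicate 4 (55.04 TPM) lay above control replicate 1 (51.3 TPM). For Ogn, the library next below the VitD group was surgery replicate 2 (26.97 TPM).

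**Figure D2:**
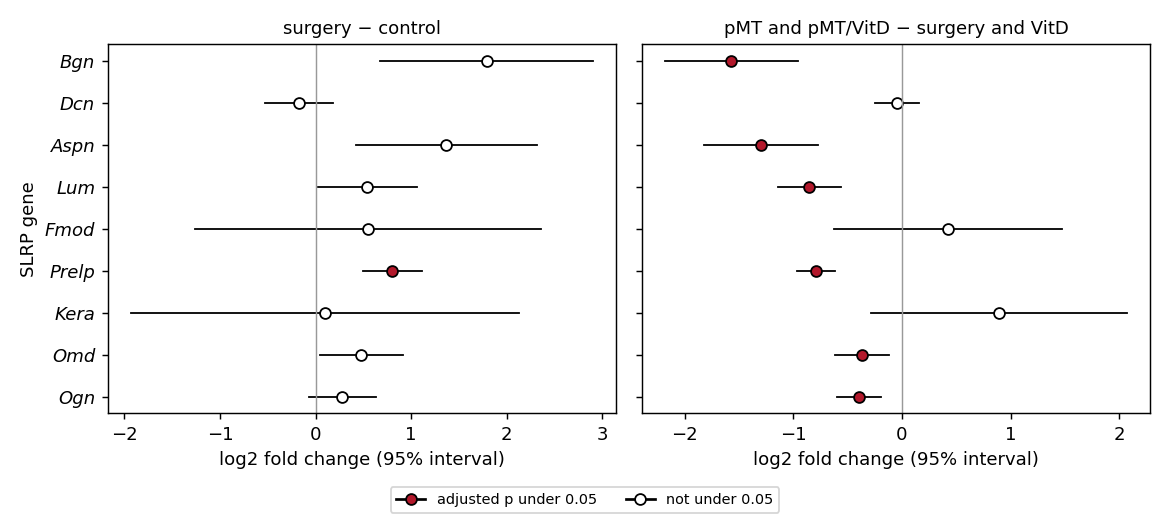
Log2 fold change of each SLRP gene with its 95% interval, for surgery against control and for the pMT and pMT/VitD groups against the surgery and VitD groups; filled points have an adjusted p under 0.05. Bgn has the lowest value in the second panel, -1.57, and the Dcn interval there runs from -0.25 to 0.16.

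In the contrast of the 8 libraries with pMT against the 5 operated libraries without it, 6 of the 9 members were lower with an adjusted p under 0.05, beside 13.3% of all 17201 genes tested. They were Bgn, Aspn, Lum, Prelp, Ogn and Omd. The median log2 fold change was -0.39 over the members and 0.01 over all genes tested. The count was 4 without surgery replicate 2 and 5 or 6 without any other of the 13 libraries. Bgn, Aspn, Lum and Prelp passed without each library in turn. In these fits the number of all genes called also moved widely, below and above the 4004 called with all libraries.

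Surgery against control asks what the injury alone had altered by the time of collection. Prelp was higher, with a log2 fold change of 0.80 (SE 0.144, adjusted p = 0.0172), and was the 1 member called, beside 1.25% of all genes tested. The values of Bgn and Aspn differed more (log2 fold changes 1.79 and 1.37) but did not pass (adjusted p = 0.0951 and 0.129). The Prelp call was lost without control replicate 1 (adjusted p = 0.189) or 2 (0.170), or surgery replicate 1 (0.141) or 2 (0.158), each of which left a lone sample that is assumed to vary like the other groups. Each of these fits also called far fewer of all genes than the fit of all libraries. The count of members was 3 with DESeq2, which called 5.82% of all genes, and 6 with limma voom and its quality weights, which called 28.5%. It was 4 with library sizes alone (997 genes called in all), 7 when only these 4 libraries were fitted (5289 genes) and 2 without both pMT replicate 4 and pMT/VitD replicate 4 (716 genes), beside 266 genes in the quasi-likelihood test of all libraries.

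For pMT against surgery, 1 member was lower, Prelp, with a log2 fold change of -0.68 (SE 0.121, adjusted p = 0.0123), beside 1.55% of all genes tested. The call was lost without surgery replicate 1 (adjusted p = 0.162) or 2 (0.172). Without pMT replicate 4, Bgn was also called (log2 fold change -1.74, adjusted p = 0.0452), against -1.37 and an adjusted p of 0.127 with it. The count was 2 without both pMT replicate 4 and pMT/VitD replicate 4 (541 genes called in all, against 334 with them) and 7 with limma voom and quality weights, which called 37.5% of all genes. The study's rule for differential expression asks for p under 0.05 and a change of 2-fold or more, and was applied with edgeR's exactTest to these 6 libraries. The study describes Benjamini-Hochberg adjustment but writes its threshold as p, so either p may be meant. With the unadjusted p, 1 member met it, Bgn, which was 2.60-fold lower, beside 3.1% of 16609 genes tested. Bgn met the rule with the adjusted p of that test too (8.68e-05). As applied here, with the unadjusted p, the rule calls more lower genes than the study reports. These counts may rest on different thresholds, and the reason for the difference was not found. Aspn was 1.89-fold and Prelp 1.61-fold lower, under the fold threshold. Without pMT replicate 4 the rule gave 2 members. The number of all genes meeting the rule also moved between the fits with single libraries left out.

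For pMT/VitD against surgery, 3 members were lower, Bgn (log2 fold change -1.46, adjusted p = 0.0499), Lum (-0.94, adjusted p = 0.0156) and Prelp (-0.88, adjusted p = 0.00149), beside 5.03% of all genes tested. The count was 1 without surgery replicate 1 or 2, which ended the calls of Bgn (adjusted p = 0.238 and 0.269) and Lum (0.125 and 0.154). It was 2 without each of pMT/VitD replicates 1 to 4, where the Bgn adjusted p was 0.0528, 0.0909, 0.0892 and 0.0672. With single libraries left out, the number of all genes called also moved widely, below and above the 1279 of all libraries. These changes are therefore not particular to the members. With the replicate number as a block the count was 1, with adjusted p-values of 0.132 for Bgn and 0.0820 for Lum. It was 6 with library sizes alone (3250 genes called in all, against 1279), 8 with limma voom and quality weights, which called 39.4% of all genes, and 5 without both pMT replicate 4 and pMT/VitD replicate 4 (3462 genes).

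For VitD against surgery, 0 members were called by the quasi-likelihood test, as were 0% of all genes tested. None of the 9 had an unadjusted p under 0.05, beside 0.808% of all genes, and DESeq2 and limma voom with quality weights also called 0 members, with 0% and 2.44% of all genes. The interval of Bgn ran from -0.69 to 1.30 and that of Prelp from -0.25 to 0.30, on the log2 scale.

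For pMT against VitD, 4 members were lower, beside 5.45% of all genes tested. Their log2 fold changes were -1.68 for Bgn (adjusted p = 0.0167), -1.43 for Aspn (0.0165), -0.77 for Lum (0.0191) and -0.71 for Prelp (0.00212). The count was 2 without pMT replicate 1, where Bgn and Aspn had adjusted p-values of 0.0503 and 0.0513, or without pMT replicate 2, where these were 0.0558 and 0.0507. Without pMT replicate 3 Lum was not called (adjusted p = 0.0503). Without VitD replicate 1 the count was 1, with adjusted p-values of 0.131 for Bgn, 0.140 for Aspn and 0.125 for Lum. It was 1 when only these 7 libraries were fitted (485 genes called in all, against 1393) and 8 with limma voom and quality weights, which called 49.6% of all genes. Fmod had a log2 fold change of 0.17, which turned to -0.96 without pMT replicate 4, and Kera went from 0.61 to -0.63.

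For pMT/VitD against VitD, 5 members were lower, beside 12.2% of all genes tested. Their log2 fold changes were -1.77 for Bgn (adjusted p = 0.00621), -1.69 for Aspn (0.00346), -1.22 for Lum (0.000754), -0.91 for Prelp (0.000258) and -0.66 for Ogn (0.00298). The count stayed at 5 without each of the 7 libraries in turn, and was 9 with limma voom and quality weights, which called 48.7% of all genes.

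For pMT/VitD against pMT, 0 members were called by the quasi-likelihood test, as were 0% of all genes tested. At an unadjusted p under 0.05 there were 3 members, Lum (log2 fold change -0.45), Ogn (-0.29) and Dcn (-0.25), beside 10.1% of all genes. DESeq2 called 0 members (0.517% of all genes) and limma voom with quality weights 4 (38.3% of all genes). Without both pMT replicate 4 and pMT/VitD replicate 4 the quasi-likelihood test called 3136 genes and 2 members, Fmod and Kera, a call that follows from which libraries were left out, as described for Kera. Whether pMT had a different effect in rats with VitD than in rats without it was also tested, and 0 members passed in the quasi-likelihood test, as did 0% of all genes tested. The unadjusted p was under 0.05 for 3 members and 5.16% of all genes, DESeq2 called 0 members, and limma voom with quality weights called 5 and 31.4% of all genes. The interval of that difference for Bgn ran from -1.65 to 0.85 on the log2 scale.

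Against control, the VitD group had 4 members higher, beside 5.48% of all genes tested. Their log2 fold changes were 2.10 for Bgn (adjusted p = 0.0228), 1.89 for Aspn (0.0177), 0.83 for Lum (0.0368) and 0.83 for Prelp (0.00470), and Ogn (gene 291015) was not called (0.51, adjusted p = 0.0505). The second Ogn entry (gene 108348095), near-identical in counts and not counted among the 9, was called there (0.52, adjusted p = 0.0475). The count was 0 without control replicate 1 or 2, 1 without VitD replicate 1, and 1 when only these 5 libraries were fitted (96 genes called in all, against 1492). Without VitD replicate 2 Lum was not called (adjusted p = 0.0570), and without VitD replicate 3 Ogn was (adjusted p = 0.0499). With single libraries left out, the number of all genes called also moved widely, below and above 1492. Such changes are therefore not particular to the members.

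For pMT against control, 0 members were called by the quasi-likelihood test, as were 0% of all genes tested, and 0 had an unadjusted p under 0.05, beside 3.07% of all genes. DESeq2 and limma voom with quality weights also called 0, with 0% and 1.32% of all genes. The interval of Bgn ran from -0.53 to 1.38 and that of Prelp from -0.14 to 0.39 on the log2 scale, so differences within these intervals remain possible. For pMT/VitD against control, 0 members were likewise called by the quasi-likelihood test, as were 0% of all genes tested, with 0 at an unadjusted p under 0.05, beside 2.88% of all genes. DESeq2 called 0 there and limma voom with quality weights 4, beside 10.6% of all genes. These comparisons share the 2 control libraries, as those above share the surgery or VitD libraries.

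Over all 5 groups together, 5 members differed, Prelp (adjusted p = 0.000325), Lum (0.00463), Aspn (0.00870), Bgn (0.00971) and Ogn (0.0230), beside 11.8% of all genes tested. Ogn was not called without surgery replicate 2 (adjusted p = 0.0506), VitD replicate 1 (0.0706) or VitD replicate 2 (0.0529). When single libraries were left out, the number of all genes called also moved, below and above the 2035 of all libraries. Limma voom with quality weights called all 9, and 66.6% of all genes.

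Members differed in which other genes followed them most closely over the 15 libraries, measured by Pearson's r of log2 CPM with the near-identical copies of Aspn, Ogn and Omd left out. For Bgn these were Thbs4 (r 0.989), Dpt (0.987) and Igf2 (0.985). For Aspn they were Map3k7 (0.982), Thbs4 (0.978) and Dstn (0.976), and Aspn and Bgn had an r of 0.975 and a rho of 0.925. Lum was closest to Tes (0.978), Lox (0.965), which encodes the enzyme that cross-links collagen, and Tle3 (0.959). Prelp was closest to LOC100911932 (0.977), C2 (0.976) and Cd248 (0.975), of which LOC100911932 and Cd248 have near-identical levels in every library and may be the same gene under 2 names. Ogn was closest to Canx (0.962), Kctd12 (0.958) and Dstnl1 (0.943). Values for Dcn were lower, with Rbms1 first at 0.923, and Omd was lowest, with Lyc2 first at 0.871. Dcn and Bgn had an r of -0.01.

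Fmod was closest to Tnnt1 (0.959), the troponin T of slow fibres, Tnmd (0.956), a tendon marker, and Tmem100 (0.953). Kera was closest to Commd8 (0.957), Stmn2 (0.946) and Zc3h15 (0.946). In pMT replicate 4 and pMT/VitD replicates 1 and 2, Tnmd stood at 8.08, 6.39 and 5.78 TPM, against 0.545 to 4.68 TPM in the other 12 libraries. Chad, another SLRP gene known from cartilage, stood at 1.49, 1.46 and 0.861 TPM in them, and at most at 0.395 TPM elsewhere. Myh1, a fast fibre myosin, was low in the same 3 libraries, at 1198, 1270 and 1199 TPM, against 2904 to 5166 TPM elsewhere. Of the other muscle markers, Myh2 was also low there (341.9, 353.6 and 321 TPM, against 652 to 1358 TPM). Myh4 stood at 4258, 4821 and 4895 TPM there, within its range elsewhere (1229 to 7704 TPM). Tnnt3 was not low, at 19630, 23700 and 24490 TPM against 17070 to 23390 TPM elsewhere.

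The 6 tendon markers summed to 35.3 and 34.3 TPM in the control, 130 and 127 TPM in the surgery and 262, 123 and 75.4 TPM in the VitD libraries. The sums were 39.7, 44.4, 45.03 and 67.0 TPM in the pMT and 61.4, 54.0, 39.6 and 34.7 TPM in the pMT/VitD libraries. In the surgery and VitD libraries these sums are mostly Thbs4, the most abundant of them by mean over the 15 libraries, which stood at 35.05, 31.29 and 24.8 TPM in pMT replicate 4 and pMT/VitD replicates 1 and 2, against 106 and 103 TPM in the surgery libraries and 15.6 to 25.5 TPM in the other 5 libraries with pMT. Scx stood at 21.2, 21.55 and 21.46 TPM in those 3 libraries and at 12.7 to 21.4 TPM in the other 12. Comp and Mkx were not above the range of the other 12 libraries there, and no tendon marker was at 0 in every library. In the contrast of 8 against 5 libraries, Thbs4 (-1.93) and Comp (-0.56) were lower and Scx (0.59) was higher of the 6, beside 2281 genes lower and 1723 higher of all 17201 tested. Of the 10 cartilage and bone markers, 9 were in the table and 3 were tested, with Col2a1 lower (-1.47) and Sox9 (0.33) and Dmp1 (0.55) not called. Their sum was between 0.455 and 1.004 TPM, Sox9 was the most abundant by mean, and Acan and Matn1 were at 0 in every library. The part of tendon or cartilage tissue in the levels of Fmod and Kera was not tested.

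**Figure D3:**
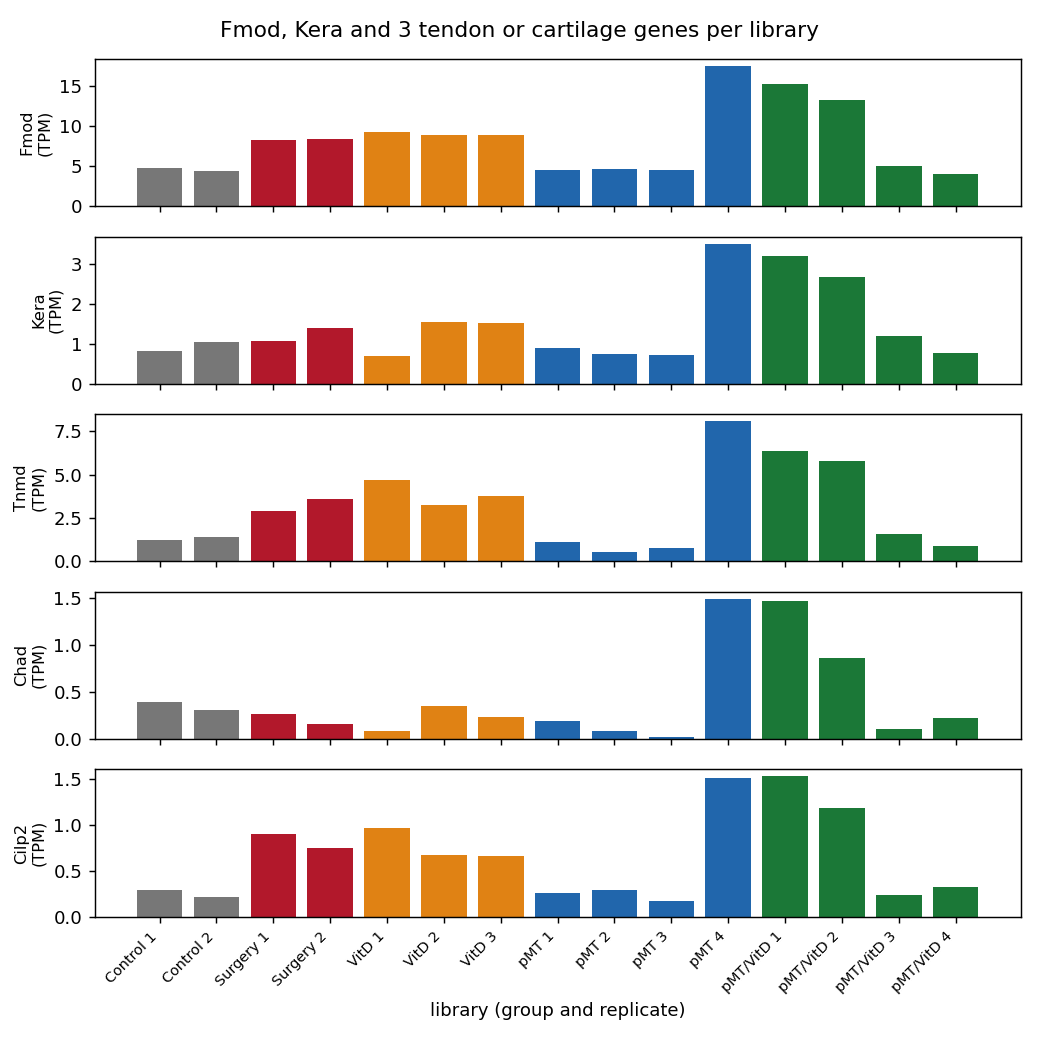
Levels of Fmod, Kera and the tendon or cartilage genes Tnmd, Chad and Cilp2, drawn after their values were seen, in TPM with 1 bar per library and colours for the groups. Fmod is highest in pMT replicate 4 (17.5 TPM) and pMT/VitD replicates 1 and 2 (15.3 and 13.3 TPM). Tnmd, Chad and Cilp2 are also high there. The other tendon markers are not drawn. Of these, Thbs4, Comp and Mkx were not above the range of the other libraries there, and Scx was at the top of it.

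Other genes of the SLRP system are given for the contrast of 8 against 5 libraries, in which 13.3% of all genes tested were lower and 1723 of 17201 were higher. Of 10 other SLRP genes, 7 were tested and 2 were lower, Tsku (log2 fold change -1.11) and Ecm2 (-0.50), with a list median of -0.46. Among 12 collagen genes whose products SLRPs bind, 10 were lower and the median was -0.90. Col1a1 had -1.43, Col1a2 -1.25, Col3a1 -1.12, Col6a2 -0.66 and Col14a1, a collagen on the fibril surface, -1.15. Of 26 tested genes for the synthesis of glycosaminoglycan chains, 9 were lower, among them Chpf (-0.55), Dse (-0.83), Chst3 (-0.70) and Chst2 (-0.59). B3gat3, which completes the linker on which chains are built, was the 1 higher gene (0.26), and the list median was -0.30. Csgalnact2 (0.09) and Chst12 (-0.18), which are among the most abundant, did not pass.

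Of 11 tested proteases and helpers that process SLRPs or procollagen, 6 were lower, with a median of -0.52, beside the same 13.3% of all genes. Bmp1, which cleaves the propeptides of procollagens and of biglycan, had -0.66, Mmp14 -0.92, Mmp2 -0.70, Pcolce -0.52 and Htra1 -0.39. Among 17 tested receptors and ligands of SLRPs, 7 were lower, with a median of -0.32. They included Cd44 (-0.81), Tgfb1 (-0.47), Tgfb2 (-0.52), Tgfb3 (-0.26), Tgfbr2 (-0.40) and Itga2 (-1.13). Of 5 tested large proteoglycan genes, Vcan (-0.82) and Prg4 (-0.66) were lower, Hspg2 had -0.14 without passing, and the median was -0.25. In surgery against control, 1 gene was higher in each of 5 of these 6 lists and 0 genes in the large proteoglycans. They were Tsku (1.26), Col14a1 (1.13), Chpf (0.80), Bmp1 (0.77) and Bmp4 (0.68), the only genes of the 6 lists called there, beside 1.25% of all genes higher.

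Marker lists of fibroblasts, myofibroblasts and macrophages are set beside the SLRP levels. All 6 myofibroblast markers were lower in the contrast of 8 against 5 libraries, with a median of -2.05, beside 13.3% of all genes tested, and Postn, the most abundant by mean over the 15 libraries, had -2.26, Acta2 -0.38, Fap -0.89, Cthrc1 -2.97 and Tnc -1.85. Their summed level was 82.6 and 85.5 TPM in the control, 232 and 237 TPM in the surgery and 453, 248 and 174 TPM in the VitD libraries. It was 81.3, 110, 138 and 59.4 TPM in the pMT and 60.1, 63.8, 66.0 and 102 TPM in the pMT/VitD libraries. These sums are mostly Acta2 and Postn, and Acta2 was above Postn in all control, pMT and pMT/VitD libraries. Lrrc15 was at 0 in both control libraries and in 4 of the 8 libraries with pMT.

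All 7 macrophage markers were lower in that contrast, with a median of -1.06, again beside 13.3% of all genes. Their sum was 177 and 167 TPM in the control, 448 and 447 TPM in the surgery and 654, 441 and 361 TPM in the VitD libraries. It was 211, 229, 247 and 129 TPM in the pMT and 125, 123, 137 and 212 TPM in the pMT/VitD libraries, and Lyz2 (-1.06) was the most abundant by mean. C1qa had -1.36, Csf1r -0.82, Cd68 -0.92 and Adgre1 -1.38. Of 10 fibroblast markers, 9 were tested and 6 were lower, with a median of -0.51, and Dpt, which is also among the genes closest to Bgn, had -0.52, Mfap5 -0.63, Scara5 -0.51 and Fbn1 -0.58. The fibroblast sum was 1017 and 941 TPM in the control, 1338 and 1297 TPM in the surgery and 1048, 1244 and 1342 TPM in the VitD libraries. It was 1316, 1393, 1419 and 825 TPM in the pMT and 811, 837, 933 and 1154 TPM in the pMT/VitD libraries, with Tcf21 at 0 in every library. Apart from VitD replicate 1, the sum is mostly Gsn, which was the most abundant and the 1 of the 9 with a log2 fold change above 0 (0.28). The part of these cell types in the SLRP levels was not tested.

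Of the remaining lists, 5 endothelial markers included 2 higher (Kdr 0.48 and Cldn5 0.44) and 2 lower (Pecam1 -0.27 and Tie1 -0.41), in a contrast with 1723 genes higher and 2281 lower of 17201, and Cdh5 (-0.15) was not called. None of the 5 Schwann cell or the 5 adipocyte markers was called in that contrast by the quasi-likelihood test. Among the more abundant of them, log2 fold changes were -0.11 (Mbp), 0.17 (Prx), -0.04 (Fabp4), 0.08 (Adipoq) and 0.22 (Cidec). Of the 8 muscle markers, Myh4 (0.88) and Des (0.44) were higher, while Acta1 (0.22), Ckm (0.42) and Tnnt3 (0.34) did not pass.

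Most members lie beside each other in the genome. In the GRCr8 assembly, Dcn, Lum and Kera are neighbours, as are Prelp and Fmod, and as are Ogn, Omd and Aspn, while Bgn has no member next to it. Neighbours differed in how far their levels moved together over the 15 libraries. Pearson's r was 0.575 for Dcn and Lum, -0.51 for Lum and Kera and -0.01 for Prelp and Fmod. It was 0.724 for Ogn and Omd and 0.662 for Omd and Aspn, whose entries have near-identical copies.

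Promoter sequences, the 250 bases before the annotated start, were available from RefSeq for 6 of the 9 members. Both strands were searched for CCAAT, a common promoter element that reads ATTGG on the other strand, and for the element TATAAA, which reads TTTATA there. CCAAT was found in Fmod, Kera and Lum, and in 34% of 33469 rat promoters of this length. TATAAA was found in Ogn, and in 12.9% of those promoters. The promoters of Fmod and Kera are printed because these genes were high in the same 3 libraries. Those of Lum and Aspn are printed as examples of genes that lie next to Dcn or Omd and were lower in the libraries with pMT. Ogn also lies next to Omd and was lower, but its promoter is not printed. The printed promoters are given with their positions. These are chr13:48045317-48045566 (plus strand) for Fmod, chr7:34283850-34284099 (plus strand) for Kera, chr7:34245456-34245705 (plus strand) for Lum and chr17:15310470-15310719 (minus strand) for Aspn in GRCr8, written 5′ to 3′ with CCAAT or ATTGG in capitals. A match is a description of the letters and not of a site that is used.
Fmod: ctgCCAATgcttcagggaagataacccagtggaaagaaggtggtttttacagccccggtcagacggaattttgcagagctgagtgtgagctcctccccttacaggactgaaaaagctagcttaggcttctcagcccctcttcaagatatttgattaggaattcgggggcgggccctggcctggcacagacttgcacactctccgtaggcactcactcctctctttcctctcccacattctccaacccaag
Kera: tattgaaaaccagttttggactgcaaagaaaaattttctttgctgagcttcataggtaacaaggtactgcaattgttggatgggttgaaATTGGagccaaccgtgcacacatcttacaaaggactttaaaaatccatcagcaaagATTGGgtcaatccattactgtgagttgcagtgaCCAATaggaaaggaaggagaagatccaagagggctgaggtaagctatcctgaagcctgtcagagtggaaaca
Lum: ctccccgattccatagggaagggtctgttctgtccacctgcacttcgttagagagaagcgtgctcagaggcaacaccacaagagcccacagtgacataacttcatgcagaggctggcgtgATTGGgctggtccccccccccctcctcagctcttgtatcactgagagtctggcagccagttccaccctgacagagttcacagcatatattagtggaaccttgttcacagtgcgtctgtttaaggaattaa
Aspn: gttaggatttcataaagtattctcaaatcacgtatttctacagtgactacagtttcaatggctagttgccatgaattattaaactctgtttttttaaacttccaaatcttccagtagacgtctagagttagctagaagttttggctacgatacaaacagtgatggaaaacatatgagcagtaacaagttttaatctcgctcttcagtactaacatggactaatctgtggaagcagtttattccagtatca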

How the data were processed

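Multifidus RNA of 15 libraries was measured by paired-end sequencing on the NovaSeq platform. Upstream tools of the authors were Trimmomatic 0.38 for trimming, HISAT2 2.1.0 for alignment to rn6, SAMtools 1.9 for sorting and StringTie 2.1.3b for quantification. They deposited unnormalised read counts per gene. The deposited TPM values were scaled for length by the authors, and 15 FPKM columns were not used. Strand and multimapping reads are not described.

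Members were matched by symbol, and groups came from the sample labels. Counts were tested in R 4.3.3 with edgeR 4.0.16: TMM factors, filterByExpr (17201 of 37991 genes), the quasi-likelihood F-test (robust) on all 15 libraries, and Benjamini-Hochberg adjustment over all genes tested, called under 0.05. The study's rule used exactTest with tagwise dispersions on the pMT and surgery libraries (16609 genes). CPM values use TMM factors. Likeness used log2 CPM (prior count 2) among genes with a mean of at least 1. Copies were entries picked by symbol or description (Aspnl1, LOC103690116 and the second Ogn entry), and their counts were compared afterwards. No search for copies by counts was made for any member.

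There were 6 gene lists and 9 marker lists, described by counts and medians. Named genes are all 9 members, the 3 most abundant genes of a list and up to 4 called genes with the smallest adjusted p, though not every such gene is given. Of genes like a member, the 3 with the highest r are named. Myh1, Myh2, Cilp2, Mkx, Lrrc15 and the genes at 0 (Acan, Matn1, Tcf21) were named after their values were seen. Members and lists were chosen with earlier results of these data known.

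Other settings tried were scaling by RLE or by library size, DESeq2 1.42.0, limma 3.58.1 voom with quality weights, at least 10 counts in every library, any count, only the libraries compared, a replicate block, a length trend removed, leaving out each library, and leaving out both pMT replicate 4 and pMT/VitD replicate 4. Summing copies and leaving out the 3 libraries highest in Tnmd were chosen after seeing the data. The tests were run on simulated counts, where DESeq2 made more false calls than the quasi-likelihood test.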

Additional observations from a re-analysis of the deposited data

Results flagged for a closer look

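In pMT replicate 4, Bgn stood at 113 CPM, while pMT replicates 1 to 3 held 48.3 to 56.0 CPM, which leaves a gap of 0.881 of the range of the group. Fmod stood at 50.8 CPM there against 8.04 to 9.49 CPM (0.966), and Kera at 6.82 CPM against 0.882 to 1.28 CPM (0.933). Each gap is above Dixon's 95% critical ratio for 4 samples. The 9 members were examined in the pMT and pMT/VitD groups, 18 groups of values in all, of which these 3 stood out, while chance gives about 1 in 20. All 3 come from the same library, so they are not independent.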

How the results depend on the processing

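Groups held 2 to 4 libraries. Of 263 counts of members under alternatives, 225 stayed within 1.5 times the value reported, 17 were lower and 21 higher. Of 1577 values of single members, 1407 kept their direction and side of the threshold, 59 lost the call, 87 gained it and 24 changed sign. A member called under no setting of a comparison was left out of this tally. The contrast of all libraries with pMT against the other operated libraries kept every member. Of 36 group levels over control, 19 differed between CPM and TPM by less than 1 SD. The cause was not tested for any of these changes.

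With limma voom and quality weights, the members called were 6 for surgery against control, 7 for pMT against surgery, 8 for pMT/VitD against surgery, 4 for pMT/VitD against pMT, 9 for pMT/VitD against VitD, 8 for pMT against VitD, 4 for pMT/VitD against control, 5 for the difference of effects and 9 over the 5 groups. In these comparisons it called 10.6% to 66.6% of all genes. DESeq2 called 3 for surgery against control. With library sizes alone, 4 were called for surgery against control and 6 for pMT/VitD against surgery, and the median of all genes moved by 0.27 for surgery against control, -0.34 for pMT/VitD against VitD and -0.24 for all libraries with pMT against the other operated libraries. When only the compared libraries were fitted, 7 were called for surgery against control, 1 for pMT against VitD and 1 for VitD against control. Without both pMT replicate 4 and pMT/VitD replicate 4, the counts were 2 for surgery against control, 2 for pMT against surgery, 5 for pMT/VitD against surgery and 2 for pMT/VitD against pMT.

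Leaving out each library in turn gave 0 to 0 members for surgery against control, 0 to 2 for pMT against surgery, 1 to 2 for pMT/VitD against surgery, 1 to 5 for pMT against VitD, 0 to 5 for VitD against control, 4 to 6 for all libraries with pMT against the other operated libraries, 4 to 5 over the 5 groups and 1 to 2 under the study's rule.

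Calls over all genes moved in those leave-one-out fits too. For surgery against control and pMT against surgery, each such fit called fewer of all genes than the fit of all libraries. For pMT against VitD they called 498 to 2091 of all genes, against 1393 with all libraries. With the replicate number as a block, 1 member was called for pMT/VitD against surgery, 5 for all libraries with pMT against the other operated libraries and 5 for VitD against control. After group means were removed, r between libraries of the same number ran from -0.81 to 0.33 over 24 pairs. Of 15 libraries, 6 best matched their own number. Centring makes these pairs depend on each other, and no chance level was computed. The values therefore cannot decide whether libraries are paired by number.

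The log2 fold change of Fmod turned for pMT against surgery with voom (-0.77), the block (-0.14), without pMT replicate 4 (-0.85) and without both pMT replicate 4 and pMT/VitD replicate 4 (-0.86). For pMT against VitD, Fmod turned with library sizes alone (-0.12), voom (-0.88), the block (-0.50), without pMT replicate 4 (-0.96) and without both pMT replicate 4 and pMT/VitD replicate 4 (-0.97). Kera turned there with voom (-0.93), the block (-0.10), without pMT replicate 4 (-0.63) and without both pMT replicate 4 and pMT/VitD replicate 4 (-0.64). For all libraries with pMT against the other operated libraries, Fmod turned without pMT replicate 4 (-0.14) and without both pMT replicate 4 and pMT/VitD replicate 4 (-0.0034). For the difference of effects, Fmod turned without pMT/VitD replicate 1 (-0.10). Over all libraries left out, Fmod ran from -0.86 to 0.54 for pMT against surgery, from -0.97 to 0.43 for pMT against VitD, from -0.14 to 0.56 for all libraries with pMT against the other operated libraries and from -0.10 to 1.72 for the difference of effects, and Kera from -0.64 to 0.90 for pMT against VitD.

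Leaving out the 3 libraries highest in Tnmd (pMT replicate 4 and pMT/VitD replicates 1 and 2) was chosen after seeing the data, by a gene that follows Fmod, so the turns of Fmod and Kera below follow from that choice and are no result. It gave 2 members for surgery against control and 3 for pMT against surgery. Fmod turned to -0.86 for pMT against surgery, -0.55 for pMT/VitD against surgery, -0.66 for pMT/VitD against VitD, -0.97 for pMT against VitD and -0.76 for all libraries with pMT against the other operated libraries. In the last of these Kera turned to -0.31 and Dcn to 0.020, and Kera turned to -0.64 for pMT against VitD.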
